A study of Homo sapiens and Mus musculus with 6 samples.

Results

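The contacts described here were the 1221 promoter CHi-C calls of GM12878 cells whose bait lay on chromosome 6 between 29.5 and 33.5 Mb of hg19, the major histocompatibility complex (MHC), out of 92929 calls in the whole list. All calls of the list had a CHiCAGO score of at least 5, and only baits with a call are in it. Among these calls, members were taken by the position of the bait alone, placed by the middle of its fragment. No further limit on reads or score was used to choose them. Baits were divided by position into class I (up to 31.4 Mb, 288 calls from 40 baits), class III (31.4 to 32.3 Mb, 604 calls from 43 baits) and class II (from 32.3 Mb, 329 calls from 37 baits). GM12878 is an established human lymphoblastoid line, that is, B lymphocytes immortalised by Epstein-Barr virus. It was sampled untreated in 3 biological replicates, all from this 1 line, so the contacts are those of 1 genome. Promoter CHi-C cuts fixed chromatin with HindIII, ligates fragments that lie close to each other and then captures ligation products that hold a promoter fragment. The captured fragment is the bait, and the fragment ligated to it is the other end. Calls had been made on all replicates together. Each therefore has 1 read count, a rounded weighted sum over replicates, and 1 CHiCAGO score, with no spread between replicates. For this reason no difference below was tested, and the 95% intervals cover counting error only, with neighbouring calls not independent of each other. The list gives no expression values, so the cell type was not checked against marker genes, and it does not give the depth of the libraries.

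The MHC holds the genes by which cells show peptides to T cells. Class I molecules such as HLA-B and HLA-E are found on nearly all nucleated cells and carry peptides that the proteasome makes and the TAP transporter brings in. Class II molecules such as HLA-DR are restricted to cells like B lymphocytes, where HLA-DM loads their peptides and HLA-DO, the product of HLA-DOA and HLA-DOB, restrains HLA-DM. The class III part between them is dense in genes of other kinds, among them the TNF cytokine cluster, complement components and heat shock proteins. Promoters of class II genes share a set of short elements that ends in the Y box, with the core CCAAT, and class I promoters hold related elements.

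The promoters of the 2 baits joined by the highest-scoring call of the region, HLA-DOB and HLA-DOA, and 1 class I promoter with a call of over 1 Mb, HLA-E, are given here with each CCAAT, on either strand, in capitals. Each is 160 bases of the GRCh37 (hg19) reference that end just before the start of the gene's canonical GENCODE transcript, read in the direction of the gene. HLA-DOB is at chr6:32784780-32784939 (minus strand), HLA-DOA at chr6:32977369-32977528 (minus) and HLA-E at chr6:30457126-30457285 (plus).
HLA-DOB: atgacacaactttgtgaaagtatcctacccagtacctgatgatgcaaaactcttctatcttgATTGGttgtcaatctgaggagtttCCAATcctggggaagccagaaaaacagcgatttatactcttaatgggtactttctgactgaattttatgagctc
HLA-DOA: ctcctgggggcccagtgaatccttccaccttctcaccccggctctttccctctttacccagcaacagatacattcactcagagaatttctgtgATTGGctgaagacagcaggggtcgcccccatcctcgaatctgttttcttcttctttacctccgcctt
HLA-E: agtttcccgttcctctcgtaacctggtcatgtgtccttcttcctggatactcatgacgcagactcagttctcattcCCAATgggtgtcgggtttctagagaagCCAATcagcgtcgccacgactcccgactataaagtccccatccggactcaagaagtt
CCAAT was present, on either strand, within 250 bases before the start of 21 of 35 promoters in listed class II baits (60.0%, Wilson 95% interval 43.6 to 74.4%). The share was 50.0% of 38 class I promoters (34.8 to 65.2%) and 37.9% of 58 class III promoters (26.6 to 50.8%), beside 36.8% of the 1008 protein-coding promoters of chromosome 6. The interferon response element, a pair of GAAA repeats 2 bases apart, was found in 6 of the 35 class II promoters, among them TAP1, TAP2 and TAPBP, in 2 of the 38 class I promoters and in 0 of the 58 class III promoters, beside 4.46% on chromosome 6. A match is a description of the letters and not evidence of a bound factor. 

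Baits of the region made more calls each than baits elsewhere, and the class III baits made the most. The median was 13 calls per bait in class III (95% interval of the median 8 to 18), 5.5 in class I (4 to 6) and 6 in class II (5 to 9), beside 3 over the 15269 listed baits of the rest of the genome and 3 over the 721 of the rest of chromosome 6. Baits were also closest together in class III, at 47.8 listed baits per Mb against 21.1 in class I and 30.8 in class II. Counted against the pairs that could have been called, 3.49% of bait and fragment pairs under 1000 kb were called in class III (3.23 to 3.77%), 2.07% in class II (1.86 to 2.31%) and 1.68% in class I (1.5 to 1.89%). The background for baits of the rest of the genome was 1.14%. All 1221 calls were in cis. With 0 trans calls, a share of up to 0.246% is allowed, and the share in the rest of the genome was 0.314%.

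**Figure D1:**
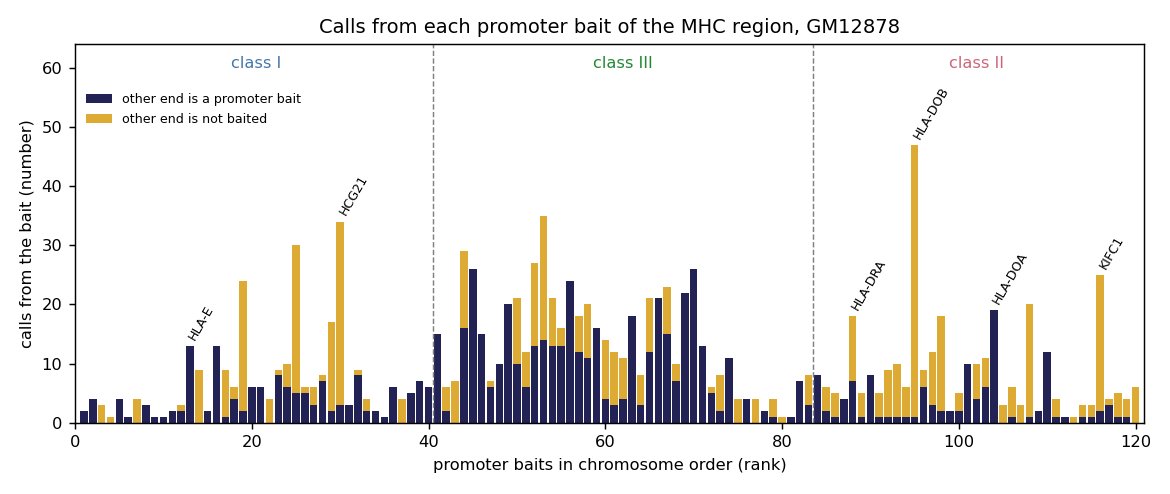
Number of calls (vertical axis) from each of the 120 promoter baits of the region in chromosome order (horizontal axis), with calls to another promoter bait in dark blue and calls to a fragment that is not baited in yellow; dashed lines separate the parts. Class III baits are high as a group with many promoter contacts, except for those nearest class II. The tallest bar, HLA-DOB with 47 calls, is nearly all yellow.

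Distances were of the same order in class I and class III, and the longer distances of class II rested in part on 1 bait, HLA-DOB. The median distance between bait and other end was 134.7 kb in class I (95% interval 112.8 to 154.4 kb), 144.7 kb in class III (129.3 to 156.3 kb) and 200.1 kb in class II (172.9 to 227.6 kb), beside 174.1 kb in the rest of the genome. Calls of 500 kb or more made up 9.12% of class II calls (30 of 329, 6.46 to 12.7%), 3.47% of class I calls and 3.15% of class III calls, and 8.38% elsewhere. The HLA-DOB bait made 17 of these 30 class II calls. Without it, 13 of 282 class II calls reached 500 kb (4.61%, 2.71 to 7.73%) and the median distance was 172.9 kb (151.6 to 204.9 kb). Calls over 1 Mb numbered 2. They joined the HLA-E bait with the DDX39B-AS1 fragment (1051.8 kb, 5 reads, score 8.36) and the NFKBIL1 bait with the TAPBP fragment (1766.7 kb, 4 reads, score 5.29). The longest class II call ran from TAP2 to MIR1236 in class III (879.9 kb, 9 reads, score 5.82). The median read count was 18.5 in class I, 19 in class III and 17 in class II (15 elsewhere), and the median score was 7.21, 7.44 and 6.79 (6.62 elsewhere).

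Class III calls ended at other promoters more often than class II calls did. The other end was itself a baited fragment in 70.5% of class III calls (426 of 604, 66.8 to 74.0%), 50.7% of class I calls (146 of 288, 44.9 to 56.4%) and 35.6% of class II calls (117 of 329, 30.6 to 40.9%), beside 29.1% of calls in the rest of the genome. The order was the same at a score of at least 10, where the shares were 88.2, 71.0 and 54.1%. Here and below, a call to a promoter is a call to a baited fragment, and a fragment that is not baited can also hold a gene start. The paper states that ligation products with both ends baited are preferentially recovered at capture, and that such pairs have a higher background in its model. What this added to the shares was not tested. Since promoters lie closer together in class III, the shares were also counted over the possible pairs of listed baits in each distance class. Pairs were not matched further within a distance class, and what this added to the shares was not tested. At 100 to 200 kb, 114 of 213 class III promoter pairs were called (53.5%, 46.8 to 60.1%), 26 of 81 class I pairs (32.1%, 22.9 to 42.9%) and 30 of 100 class II pairs (30.0%, 21.9 to 39.6%), against a background of 26% for the rest of the genome. At 200 to 500 kb the shares were 27.8% in class III (102 of 367, 23.5 to 32.6%), 16.1% in class I (12.1 to 21.2%) and 11.3% in class II (7.97 to 15.7%), against 13.6%. At 500 to 1000 kb they were 2.20, 2.35 and 1.59%, against 2.2%. Class III was thus above the background at the distances up to 500 kb. At 500 to 1000 kb it had 2 of 91 pairs called (0.605 to 7.66%), too few to tell a higher or lower share from the background. The intervals of class I and of class II included the background at 100 to 200 and 200 to 500 kb.

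**Figure D2:**
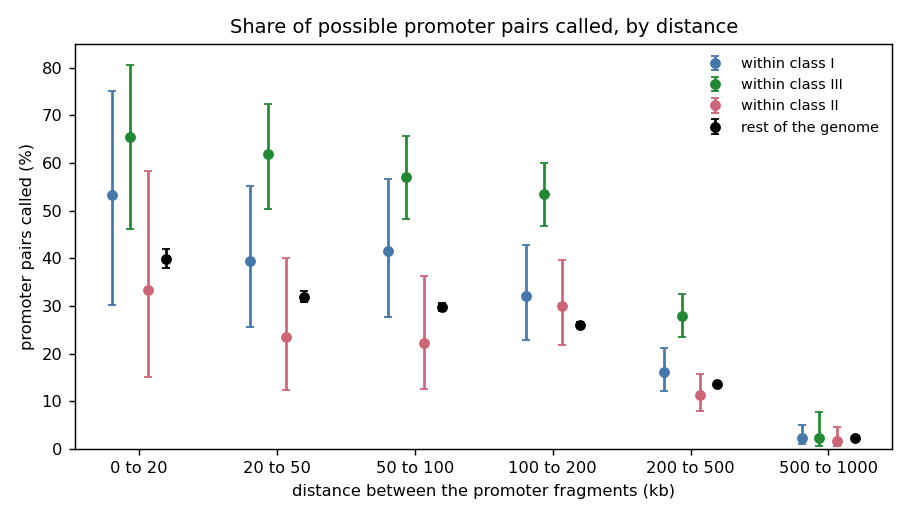
Share of possible pairs of listed promoter baits that were called (vertical axis, percent, with Wilson 95% intervals of counting error) by distance between the fragments (horizontal axis, kb), for pairs within each part and for the rest of the genome. Class III lies above the rest of the genome up to 500 kb, with 53.5% against 26% at 100 to 200 kb, and at 500 to 1000 kb the parts lie between 1.59 and 2.35%.

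The class III contacts were densest between about 31.5 and 31.92 Mb and did not fill the part evenly. The baits from C4A to the class II boundary made 1 to 8 calls each, beside a median of 13 over the part. The counts that follow are over the whole part. Of the 887 possible pairs of class III promoters, 347 were called (39.1%, 36.0 to 42.4%), and 67 of these were called from both ends (19.3%, beside 20.3% of called promoter pairs elsewhere). The baits with the most calls were LY6G5B (35 calls), DDX39B-AS1 (29) and CSNK2B (27), the last of these the regulatory subunit of casein kinase 2. The other ends contacted by the most baits of the region were the DDX39B fragment at chr6:31497462-31506444 (30 baits, 25 in class III and 5 in class I), the nearby DDX39B-AS1 fragment (26 baits) and the LY6G5B fragment (26 baits). DDX39B encodes an RNA helicase of splicing and export. Its canonical start lay in the DDX39B-AS1 fragment. The fragment called DDX39B here holds another annotated start of the gene, so its values are not those of the canonical promoter. Fragments contacted by at least 20 baits numbered 10 of 324 other ends of the region (3.09%). In the whole genome, the region included, they numbered 63 of 49411 (0.128%). These shares were not adjusted for the number of baits near a fragment, which was highest in class III (47.8 listed baits per Mb). Among fragments that were not baited, 3 were reached from 11 class III baits each. They lay at exons of ABHD16A (chr6:31658518-31661601), between HSPA1A and HSPA1B (chr6:31785890-31788100) and at exons of SLC44A4 (chr6:31830742-31836414). The ABHD16A and SLC44A4 fragments each hold an annotated start of the gene, and the baits that carry these names are neighbouring fragments.

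The 8 genes of the TNF cluster list, which includes DDX39B, were held by 6 baits with 94 calls, from 7 to 29 each, and 73 of the calls ended at a promoter. The DDX39B fragment itself, although contacted by 30 baits, made 7 calls as a bait and 0 of them ended at a promoter. The bait that holds TNF and its neighbour LTA, both lymphocyte cytokines, made 15 calls, all to promoters. The highest-scoring of them was with LTB (67 reads, score 11.09, 13.5 kb), and it also reached LSM2 (18 reads, score 10.51, 239.8 kb), HSPA1A (17 reads, score 9.74, 245.6 kb) and the C2 and CFB bait (9 reads, score 5.70, 356.2 kb). The bait of NFKBIL1 made 26 calls, all to promoters, of which the call to DDX39B was among the 3 highest scores of class III (68 reads, score 39.22, 14.7 kb). The bait shared by AIF1, LST1 and NCR3 made 10 calls and LTB made 7. The HSP70 genes, which encode stress-induced chaperones, had 21 calls from each of their 2 baits. Of these, 12 and 21 ended at promoters. Those of the HSPA1A and HSPA1L bait all ran toward lower coordinates, that is, toward the TNF cluster. HSPA1A and HSPA1B are near-identical copies, as are C4A and C4B, and how reads that match both copies were assigned was not tested, so their values are uncertain.

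The complement genes had fewer calls. The 2 baits with C2 made 13 and 6 calls, 18 of the 19 to promoters, and reached the DDX39B fragment over 391.2 kb (16 reads, score 5.10). The C4A bait made 4 calls and the C4B bait 4, over a stretch that few calls spanned. At positions spaced 20 kb apart, the number of calls of the region's baits that spanned a position was 356 at 31.72 Mb, fell to 55 at 31.92 Mb, and was between 22 and 24 from 31.94 to 32.08 Mb, where the C4 genes and TNXB lie. It rose again to 55 at the boundary with class II and reached 148 at 32.60 Mb. The lowest value inside class III was 14, from 31.42 to 31.46 Mb, mostly within a stretch of 46.2 kb in which no call ended. At the boundary between class I and class III 17 calls spanned the position.

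**Figure D3:**
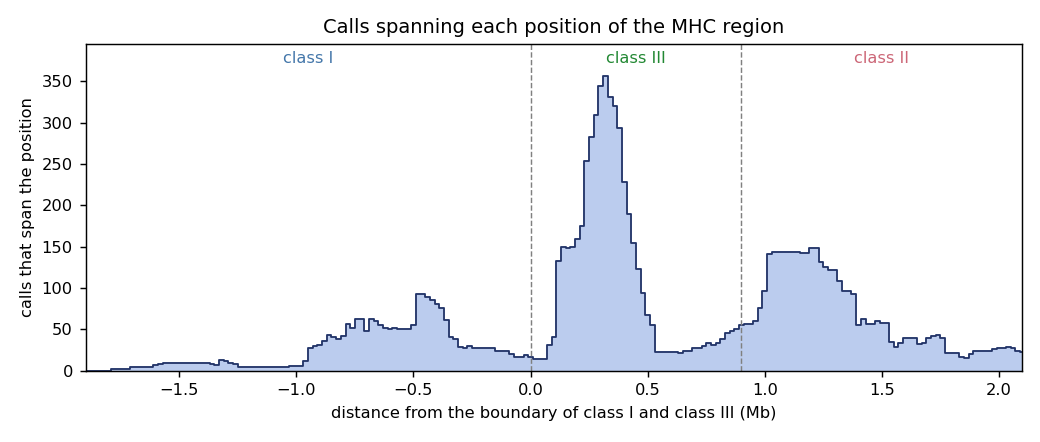
Number of calls from the region's baits that span each position (vertical axis), at positions 20 kb apart given as distance from the boundary of class I and class III (horizontal axis, Mb); dashed lines mark the part boundaries. The highest point (356 calls) lies in class III, with 14 calls near its start and 22 to 24 calls before class II, where a plateau of 143 calls crosses the HLA-DRB area.

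In class I, HLA-B and HLA-C, both classical class I genes, contacted promoters only. HLA-B made 7 calls and HLA-C made 5. All 12 calls ended at promoters, with a median of 9 reads. The HLA-B bait had its highest score with HCG21 (11 reads, score 19.25, 409.3 kb) and also reached POU5F1 (7 reads, score 8.41, 178.8 kb) and the DDX39B fragment of class III (11 reads, score 13.42, 173.4 kb). The HLA-C bait reached HCG21 (17 reads, score 14.37, 329.3 kb) and DDX39B (19 reads, score 14.35, 253.5 kb). These 2 baits thus shared both of their leading partners, which lie on opposite sides of them. Neither fragment was the other end of any call. Class I and class II HLA genes have close relatives in the region, and how reads that match more than 1 of them were assigned was not tested.

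The nonclassical genes showed the same pattern, with the same limit. HLA-E, HLA-F, HLA-G, MICA and MICB had 40 calls from 5 baits, and all 40 ended at promoters (median 8.5 reads, median distance 226.1 kb). HLA-E, a ligand of inhibitory receptors on natural killer cells, made 13 calls. Its 2 highest scores were with the long noncoding RNA XXbac-BPG249D20.9 (40 reads, score 37.01, 21.5 kb) and with C6orf136 (23 reads, score 32.96, 158.2 kb). HLA-F and HLA-G, which lie nearer the telomere, made 2 and 4 calls, and both had their highest score with TRIM31, a ubiquitin ligase gene (score 12.18 over 381.6 kb and 15.61 over 276.5 kb). TRIM31 was contacted by 10 baits and was the partner in the highest-scoring class I call, from TRIM40 (34 reads, score 38.40, 29.4 kb). MICA, a stress-induced ligand of natural killer cells, made 6 calls, 4 of them into class III, with DDX39B first (14 reads, score 13.80, 126.3 kb). MICB lies in class III by position. Its bait made 15 calls, and the one to DDX39B (54 reads, score 40.34, 36.0 kb) was the highest-scoring call of that part.

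Class I calls were otherwise centred on baits that contacted many fragments that were not baited. The baits with the most calls were HCG21 (34 calls, 3 to promoters), FLOT1 with IER3 (30 calls, 5 to promoters) and C6orf136 (24 calls, 2 to promoters). HCG21 was also the other end for 22 baits, 20 of them in class I and 2 in class III, at distances from 19.2 to 670.2 kb, and the neighbouring DPCR1 fragment for 15. The fragment of HCG21 (chr6:30915623-30922825) overlaps exons of MUCL3 and SFTA2 in GENCODE. Among other genes of the lists, TUBB, a tubulin gene, made 10 calls, both DDR1 baits made 6 each and POU5F1, a pluripotency factor gene, made 4.

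Class II contacts were centred on HLA-DOB. The HLA-DOB bait made 47 calls, the most of the region, and 97 listed baits of the genome (0.630%) had at least as many. Only 1 of the 47 ended at a promoter bait, HLA-DRA. Of the calls, 39 ran toward lower coordinates, and 38 of these lay 355.1 to 756.4 kb away, with 1 call nearer on that side (134.6 kb). The 38 covered 43.2% of the 88 HindIII fragments from chr6:32026849 to chr6:32431177. They comprised 18 fragments around and upstream of HLA-DRA, with 16 to 37 reads, and 20 in class III, with 11 to 21 reads. Reads were highest just before HLA-DRA, where the fragments chr6:32396347-32400292 (37 reads, score 22.25), chr6:32385222-32394736 (36 reads, score 21.70) and chr6:32381598-32383037 (35 reads, score 21.11) had the 3 highest scores. The remaining 8 calls ran toward higher coordinates and ended between 9.67 and 348.4 kb away, 5 of them around BRD2 and the stretch up to HLA-DOA. The limit of 300 kb used to divide these calls was chosen after the values were seen.

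As an other end, HLA-DOB was contacted by 20 baits, 14 in class II and 6 in class III, at distances from 18.8 to 931.6 kb. The highest scores were from HLA-DOA (26 reads, score 42.00, 192.7 kb), which was the highest of the whole region, HLA-DMA (23 reads, score 35.28, 137.7 kb) and RNU6-603P (16 reads, score 30.57, 459.8 kb). All 4 genes of the loading machinery, HLA-DMA, HLA-DMB, HLA-DOA and HLA-DOB, were thus joined through calls that ended at HLA-DOB, since both HLA-DMB baits reached it as well (36 reads, score 9.40, and 18 reads, score 10.26). The class III baits were XXbac-BPG154L12.4 (24 reads, score 16.22, 562.1 kb), the bait with NOTCH4 and PBX2 (8 reads, score 16.02, 622.8 kb), EHMT2 (7 reads, score 12.18, 931.6 kb), ATF6B (13 reads, score 7.67), C4B (4 reads, score 6.92) and AGER (9 reads, score 5.11). The most reads were in the call from TAP2 (88 reads, score 9.14, 18.8 kb), so the highest scores were not those with the most reads. The pair of HLA-DOB and HLA-DRA was called from both ends, with score 6.84 from HLA-DOB and 18.58 from HLA-DRA and 36 reads in each. All other promoter pairs with HLA-DOB, those with HLA-DOA and HLA-DMA included, were called from the other bait only.

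**Figure D4:**
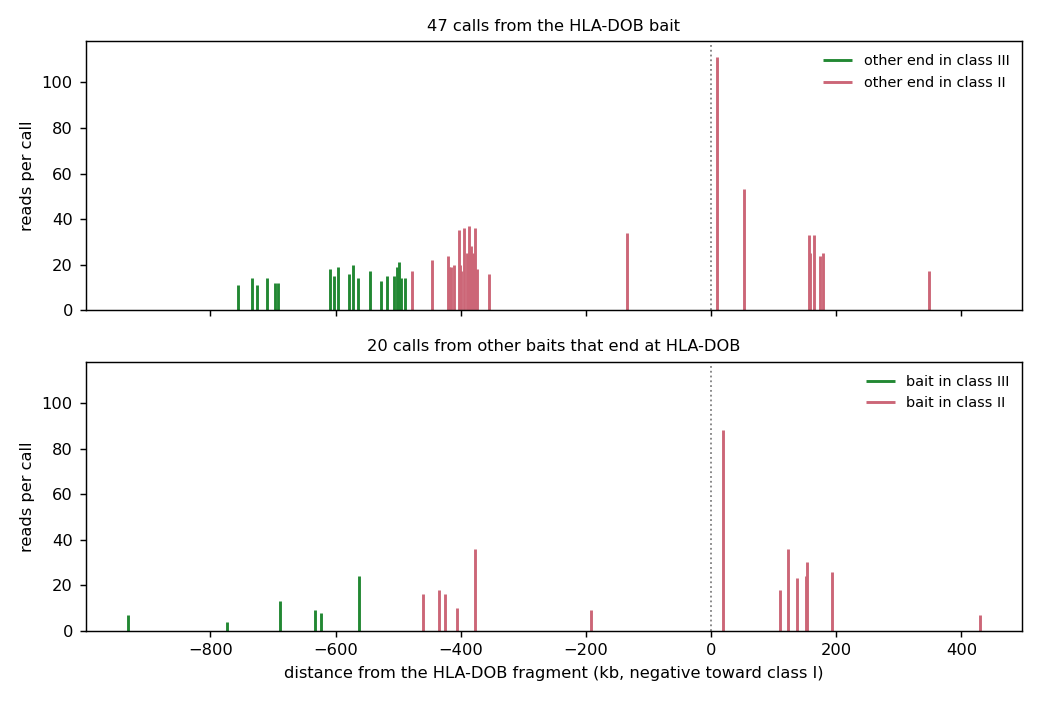
Reads per call (vertical axes) against distance from the HLA-DOB fragment (horizontal axis, kb, negative toward class I), for the 47 calls from the HLA-DOB bait (upper panel) and the 20 calls from other baits that end at it (lower panel), coloured by the part of the far end. In both panels calls are grouped near 400 kb and beyond 500 kb on the negative side, with 1 call each between 100 and 300 kb there.

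Among the baits of the class II chain genes, only those of HLA-DRA and HLA-DQA1 had a call with HLA-DOB. HLA-DRA, the alpha chain of DR molecules, made 18 calls, all toward higher coordinates and at least 218.0 kb away. It reached both HLA-DQB1 baits (22 reads, score 7.18, and 23 reads, score 8.12), TAP2 (19 reads, score 8.74), the shared bait of TAP1 and PSMB9 (22 reads, score 8.86, 414.8 kb) and BRD2, a chromatin reader (15 reads, score 8.18, 529.0 kb). HLA-DRA was contacted by 11 baits, all in class II. HLA-DQA1 made 8 calls, all to promoters, with the highest score at HLA-DOB (9 reads, score 15.60, 192.1 kb). The baits of HLA-DQA2 (10 calls), HLA-DQB2 (6), HLA-DQB1 (9 and 5) and HLA-DRB1 (5) each had 1 promoter among their partners. The HLA-DPA1 and HLA-DPB1 fragments made 3 and 6 calls, all between 53.3 and 119.7 kb away, with 1 promoter among the 9. Over the list, 9 baits of 8 genes made 70 calls, 21 of them to promoters. No call had a bait named HLA-DRB5.

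The genes that supply peptides to class I molecules lie in class II and made most of their contacts within it, with 1 call leaving the part from TAP2, 2 from the shared bait of PSMB9 and TAP1 and 1 from TAPBP. The shared bait of PSMB9 and TAP1 made 18 calls, a bait named for PSMB8 and PSMB9, both immunoproteasome subunits, made 12 and TAP2 made 9, while TAPBP, the tapasin gene at the far end of the part, made 3. The PSMB9 and TAP1 fragment was the other end for 11 baits, 9 in class II, with scores up to 29.48 from HLA-DMA (22 reads, 100.3 kb). HLA-DOA made 19 calls, all to promoters, and after HLA-DOB its highest score was with the fragment of RXRB and SLC39A7 (28 reads, score 34.27, 191.8 kb), a retinoid X receptor and a zinc transporter gene. That fragment as a bait made 20 calls, 1 to a promoter. KIFC1 had 25 calls, 2 to promoters, and 9 of them left the region beyond 33.5 Mb. Of other genes in the lists, RING1 made 2 calls and the BRD2 baits 10 and 11. The bait named for DAXX, which made 3, overlaps no exon of that gene in GENCODE. For HLA-DQA1, POU5F1, C4B, CFB and NOTCH4, too, the canonical start lay in no listed bait, so values under these names are those of the fragments named for them.

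Baits differed in the kind of fragment they reached. Among the 82 baits of the region with at least 5 calls, 27 contacted promoters only (32.9%, 23.7 to 43.7%), beside 14.4% of 5835 such baits elsewhere. In 16 (19.5%, 12.4 to 29.4%) under 20% of the other ends were promoters, beside 55.0% elsewhere. The largest group, 39 baits (47.6%, 37.1 to 58.2%, 30.6% elsewhere), was mixed. Read counts moved with these shares. The median of the baits' median reads was 13 for baits with promoter contacts only, 20.5 for mixed baits and 23 for those with few promoter contacts, and 10, 15 and 16.5 elsewhere. Of the 27 baits with promoter contacts only, 13 were contacted by no other bait (48.1%, 30.7 to 66.0%), a lower share than the 73.7% of such baits elsewhere (618 of 839). The share was 7.69% of mixed baits in the region and 15.5% elsewhere.

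**Figure D5:**
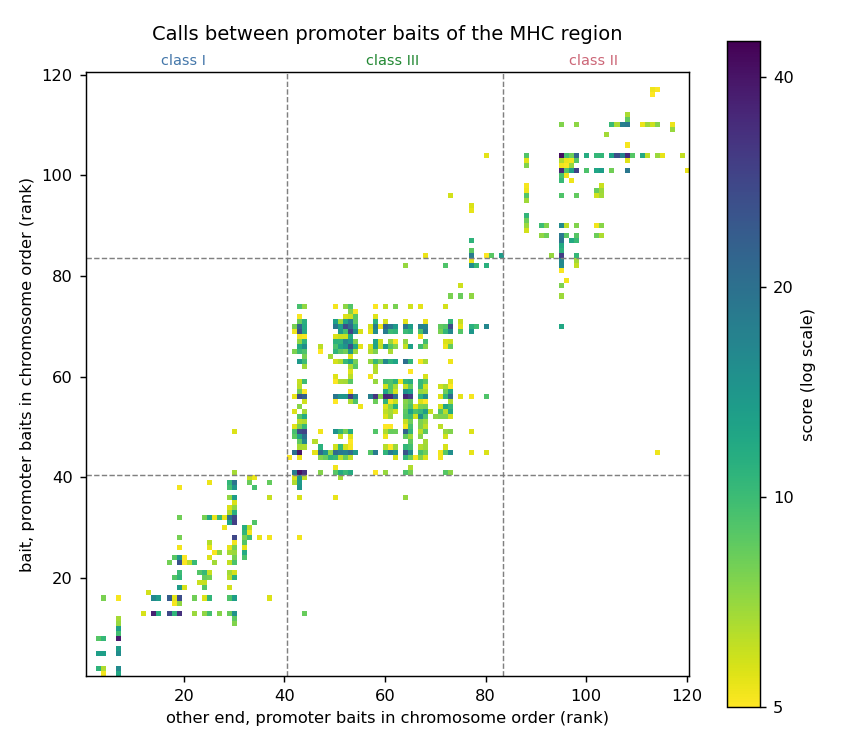
Calls between promoter baits of the region, with baits on the vertical axis and other ends on the horizontal axis, both in chromosome order; colour gives the score on a log scale and dashed lines separate the parts. The middle square (class III) is densely filled except at its class II end. The class I and class II corners are empty, and vertical stripes mark fragments contacted by many baits, such as DDX39B and HLA-DOB.

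Contacts between the parts were few, and class I and class II were not joined by any call. Of the class I calls, 15 (5.21%, 3.18 to 8.41%) ended in class III. Of the class III calls, 20 (3.31%, 2.15 to 5.06%) ended in class II and 2 (0.331%) in class I, both at HCG21. Of the class II calls, 35 (10.6%, 7.75 to 14.4%) ended in class III and 23 (6.99%) beyond the region, where BAK1, an apoptosis gene, was reached from 5 baits. Calls between class I and class III numbered 17, of which 7 (41.2%) ended at the DDX39B fragments. Calls between class III and class II numbered 55, and 26 of them (47.3%) had HLA-DOB at 1 end. The highest-scoring call between these 2 parts was from RNU6-603P to the fragment of ATF6B and TNXB (13 reads, score 18.02, 242.8 kb).

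Set against the possible pairs, promoter contacts at 200 to 500 kb were rarer across both boundaries than in the same distance class elsewhere. Across the class I and class III boundary they were also rarer at 500 to 1000 kb. Pairs were not matched further within a distance class, and across each boundary possible pairs rose in number from 100 to 1000 kb. What this added to the differences was not tested. Across the class I and class III boundary 5 of 12 pairs were called at 100 to 200 kb (41.7%, 19.3 to 68.0%, background 26.0%), where the interval included the background. At 200 to 500 kb 4 of 123 pairs were called (3.25%, 1.27 to 8.06%, background 13.6%), at 500 to 1000 kb 4 of 540 (0.741%, 0.288 to 1.89%, background 2.2%) and at 1000 to 2000 kb 1 of 957 (0.104%, 0.0184 to 0.590%, background 0.332%), where the interval included the background. Across the class III and class II boundary 3 of 11 pairs were called at 100 to 200 kb (27.3%, 9.75 to 56.6%), where the interval also included the background. Across this boundary 4 of 77 pairs were called at 200 to 500 kb (5.19%, 2.04 to 12.6%, background 13.6%), 13 of 452 at 500 to 1000 kb (2.88%, 1.69 to 4.86%, background 2.2%) and 1 of 1051 at 1000 to 2000 kb. Between class I and class II none of 1480 possible pairs was called, which allows a share of up to 0.203%. Of these pairs, 422 lay 1000 to 2000 kb apart (background 0.332%) and 1054 lay 2000 to 5000 kb apart (background 0.0086%). At the rates of the rest of the genome 1.58 calls would be counted among the 1480 pairs, so a lower rate was not detectable.

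Some stretches of the region held no called end. In class II, 1 such stretch ran over 125.1 kb and 39 fragments (chr6:32431178-32556285), contains HLA-DRB5 and overlaps HLA-DRB1, and was spanned by 143 calls without any that ended in it. Over the region 344 of 877 HindIII fragments (39.2%) carried a called end, with 71.1% of 142 fragments in class III, 39.9% of 301 in class II and 28.3% of 434 in class I. Fragments were shortest in class II (median 2385 bases) and longest in class III (3966 bases). How well reads could be mapped in the empty stretches was not tested, and the list does not show whether a fragment there was captured.

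The core of the CTCF motif, a sequence bound by a protein of chromatin loops, was counted in fragments by how many baits contacted them, within classes of fragment length. It has 12 letters, 8 of them fixed, and was searched on both strands. Among fragments of 5 to 10 kb, it was present in 16 of 30 that were the other end of at least 5 baits (53.3%, 36.1 to 69.8%), in 13 of 65 that were the end of 1 to 4 baits (20.0%, 12.1 to 31.3%), in 19 of 86 with no called end (22.1%, 14.6 to 31.9%) and in 11.2% of 8282 such fragments in the rest of chromosome 6. At the other lengths the intervals of the groups of the region overlapped. For ends of at least 5 baits and of 1 to 4 baits, the shares were 0 of 8 and 8.33% under 2 kb, 22.7% (10.1 to 43.4%) and 11.9% (6.6 to 20.5%) at 2 to 5 kb, and 70.0% (39.7 to 89.2%) and 62.8% (47.9 to 75.6%) at 10 kb or more. Region fragments with no called end had 3.08, 11.9 and 34.5% at these lengths. The rest of chromosome 6 had 1.48, 4.94 and 23.2%. Its shares at 2 to 5 kb and at 10 kb or more lay below the intervals of both contacted groups. Of all 71 other ends reached by at least 5 baits, 44 were promoter fragments, and the part of base composition in these shares was not tested. Of the 8 fragments without a bait that were contacted by the most baits of the region, 3 held 1 core each. These are shown with 40 bases on either side, plus strand of GRCh37, with the 12 letters of the match in capitals, because they are the sites that many promoters reached although they are not captured themselves. They lie at chr6:31831770-31831861 (SLC44A4 fragment, 11 baits), chr6:31916104-31916195 (CFB and NELFE fragment, 10 baits) and chr6:32390656-32390747 (before HLA-DRA, 9 baits, 1 of them HLA-DOB).
SLC44A4 fragment: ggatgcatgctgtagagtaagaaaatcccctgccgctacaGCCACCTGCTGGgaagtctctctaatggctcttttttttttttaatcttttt
CFB and NELFE fragment: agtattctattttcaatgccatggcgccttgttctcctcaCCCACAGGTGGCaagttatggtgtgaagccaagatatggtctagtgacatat
Fragment before HLA-DRA: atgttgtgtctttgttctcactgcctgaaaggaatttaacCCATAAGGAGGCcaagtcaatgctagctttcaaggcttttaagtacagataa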

How the data were processed

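Per the labels and methods, the authors mapped read pairs of 3 GM12878 replicates to hg19 with HiCUP and Bowtie (version 1.1.0 in the submitters' processing notes), removed duplicates and called interactions with CHiCAGO on all replicates jointly. The deposited list gives 2 values per call, both handled as a score: the authors' rounded weighted sum of reads over replicates, which is not a raw count, and the CHiCAGO score, a weighted -log p-value, of at least 5. Library depth was not taken from the list. All 92929 calls were parsed, and every fragment matched a HindIII digest of GRCh37. A promoter fragment was one listed as a bait or named as an other end. Possible pairs joined a listed bait with fragments under 5 Mb away, adjacent fragments excluded, as no call joined neighbours. Shares have Wilson 95% intervals, and medians have binomial order-statistic intervals (Python 3.11.15, pandas 2.3.3, scipy 1.17.1). Gene starts were from GENCODE lifted to GRCh37, and pair counting was tested on simulated data. The text names baits of fixed gene lists, the top baits and calls of each part, and between-part calls; members and lists were chosen with earlier results of these data known. Alternatives changed score, reads, list, boundaries and fragment length. Baits without a call and mouse samples were not used here. Some items are not reported here.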

Additional observations from a re-analysis of the deposited data

How the results depend on the processing

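No paired analysis was possible because the calls were made on all replicates together and no test was run, and for the same reason no replicate could be left out. Of 238 values under 9 alternatives, 174 stayed within the counting interval of the reported value (for counts, within 1.5 times) and 64 moved, 30 of them under the higher score limit and 18 under the read limit. The authors' browser list gave the same values as counting each pair of fragments once, so these alternatives are not separate checks. Promoter pairs are counted once in the main values too, so their shares could not move under either. The order of the parts in the share of baited other ends (class III, then I, then II) and the count of 0 promoter pairs between class I and class II held under each alternative in which they were computed. With a score of at least 10, 300 calls remained, the median distances were 105.7, 128.8 and 233.7 kb in class I, III and II, the shares with a baited other end 71.0, 88.2 and 54.1%, the shares leaving the part 1.76% in class III and 11.5% in class II, and the promoter pairs called 5.42, 15.8 and 4.55% within the parts, 0.174% between class I and III and 0.377% between class III and II. With at least 10 reads, the median distance was 105.7 kb in class I and 158.2 kb in class II, the baited share 42.3 and 30.4%, the share leaving class I and III 2.51 and 2.21%, and the promoter pairs called 10.2, 34.3 and 8.65% within the parts, 0.174% between class I and III and 0.440% between class III and II. With boundaries 100 kb up, 9.06, 7.43 and 28.8% of calls left class I, III and II, 34.0% of class III promoter pairs and 1.75% of those between class I and III were called; 100 kb down, 13.1% of calls left class II. Without the HLA-DOB bait, an alternative added after seeing the data, 41.1% of class II calls had a baited other end and 13.5% left the part. The cause of these shifts was not tested. Calls between class I and III had a median of 8 reads, and statements on pairs over 1 Mb are limited by the small number of calls there.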
